A study of Mus musculus with 15 samples.

Results

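The genes described here are the 7 sarcomeric myosin heavy chain genes Myh1, Myh2, Myh3, Myh4, Myh6, Myh7 and Myh8, picked by symbol from the 54232 genes of a count table of the developing mouse palate. All 7 passed the filter on low counts and were tested among 22151 genes. The tissue was the dissected secondary palate of wild-type (WT) mice on embryonic day (E) 13.5, 14.5, 15.5 or 16.5, or on postnatal day 0 (P0), measured by bulk RNA sequencing. Each stage had 3 libraries, and every library was 1 pool of 3 animals, so replicate error here is the variation among pools. The labels give no treatment and no second genotype for these groups, and nothing says whether the pools of a stage came from separate litters. The p-values therefore measure only the spread between these libraries. These samples address the part of the study that profiles expression over palate development.

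The myosin heavy chain is the motor of the thick filament of striated muscle, and the isoform a fibre makes sets how fast it shortens. Developing skeletal muscle first makes the embryonic chain (Myh3) and the perinatal chain (Myh8), and the adult fast chains IIA (Myh2), IIX (Myh1) and IIB (Myh4) follow. Myh7 encodes the slow chain, which the heart also makes as its beta chain, and Myh6 encodes the alpha chain of the heart. The soft palate carries muscles that lift and tense it for swallowing, and the hard palate does not.

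The libraries held 21.5 M to 69.02 M counts (median 61.03 M), and 3 counts, taken as the floor of detection, corresponded to 0.0435 to 0.140 CPM (counts per M counts of the library). Over all tested genes, 5 of the 15 libraries correlated best with a library of another stage. E16.5 replicate 1 was nearest to P0 replicate 2 (Pearson r across genes 0.974), and P0 replicates 1 and 2 were both nearest to E16.5 replicate 1 (0.974 each). P0 replicate 3 was nearest to E15.5 replicate 3 (0.966), and E15.5 replicate 1 to E16.5 replicate 2 (0.973). E16.5 replicate 1 and P0 replicate 3 were left out together as an alternative, and E15.5 replicate 1 was left out on its own. The defining markers of skeletal muscle were present at every stage. The lowest and highest CPM of desmin (Des), an intermediate filament protein of muscle, were 19.8 and 34.7 at E13.5 and 580 and 1833 at E16.5.

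Of the 7 genes, 5 lie in 1 cluster on chromosome 11, all on the plus strand of GRCm38, in the order Myh3 (chr11:67078300-67102291), Myh2 (chr11:67171027-67197517), Myh1 (chr11:67200052-67224575), Myh4 (chr11:67238029-67260446) and Myh8 (chr11:67277124-67308634). Myh13, a heavy chain known from eye and larynx muscles, follows at chr11:67321658-67371586. The other 2 genes are neighbours on the minus strand of chromosome 14, Myh6 at chr14:54941921-54966927 and Myh7 at chr14:54970684-54994626. All are annotated as protein-coding. Their identifiers in the table are ENSMUSG00000020908.14 (Myh3), ENSMUSG00000033196.17 (Myh2), ENSMUSG00000056328.14 (Myh1), ENSMUSG00000057003.12 (Myh4), ENSMUSG00000055775.16 (Myh8), ENSMUSG00000040752.16 (Myh6) and ENSMUSG00000053093.16 (Myh7). The genes are close relatives, and a read that mapped to more than 1 place was not counted. Of all 50-base windows of the longest coding transcript, 26.7% of Myh1, 26.9% of Myh2, 18.9% of Myh4, 21.4% of Myh8, 22.6% of Myh6 and 22.2% of Myh7 also occurred in another gene. Myh3 shared 4.81% of its windows. Myh1 and Myh2 shared most with each other, and the windows of Myh6 and Myh7 were shared between those 2 genes. How many reads were lost or split in this way was not tested.

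All 7 genes had a RefSeq promoter window. The 5′ flanks of the clustered genes are shown because Myh3 lacks a run of sequence that the other 4 share. Myh1, Myh4 and Myh8 share a further run, which Myh3 and Myh2 both lack as an exact match. Myh2 holds a near match upstream of the first run, tcaaattatccatag, which differs from it only by cc in place of TT. Only exact matches were searched. The stretches below run from 250 bases before the RefSeq transcription start of each gene (GRCm38.p6, plus strand), and that of Myh1 ends at the gene start of the count table. They cover chr11:67078050-67078299 (Myh3), chr11:67170777-67171026 (Myh2), chr11:67199852-67200051 (Myh1), chr11:67237562-67237811 (Myh4) and chr11:67276874-67277123 (Myh8). Capitals mark the longest run of bases common to Myh2, Myh1, Myh4 and Myh8 and the longest further run common to Myh1, Myh4 and Myh8. Both runs were chosen after the sequences were seen.
Myh3: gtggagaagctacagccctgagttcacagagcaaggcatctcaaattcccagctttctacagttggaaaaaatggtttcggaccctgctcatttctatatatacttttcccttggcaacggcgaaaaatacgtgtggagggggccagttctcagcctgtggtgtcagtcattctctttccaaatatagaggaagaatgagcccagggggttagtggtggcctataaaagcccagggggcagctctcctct
Myh2: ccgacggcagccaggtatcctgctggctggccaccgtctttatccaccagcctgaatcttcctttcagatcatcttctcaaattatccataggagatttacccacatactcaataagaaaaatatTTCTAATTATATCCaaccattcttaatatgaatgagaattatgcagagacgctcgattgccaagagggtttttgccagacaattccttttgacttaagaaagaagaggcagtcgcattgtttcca
Myh1: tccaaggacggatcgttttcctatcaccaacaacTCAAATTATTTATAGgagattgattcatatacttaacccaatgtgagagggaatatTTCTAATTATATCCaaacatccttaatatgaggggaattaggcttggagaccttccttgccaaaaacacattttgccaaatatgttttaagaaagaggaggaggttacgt
Myh4: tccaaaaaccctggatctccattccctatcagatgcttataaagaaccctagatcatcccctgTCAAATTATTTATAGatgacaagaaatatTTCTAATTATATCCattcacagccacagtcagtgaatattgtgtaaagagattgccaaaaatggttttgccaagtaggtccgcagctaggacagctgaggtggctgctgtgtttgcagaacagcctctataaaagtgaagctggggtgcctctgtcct
Myh8: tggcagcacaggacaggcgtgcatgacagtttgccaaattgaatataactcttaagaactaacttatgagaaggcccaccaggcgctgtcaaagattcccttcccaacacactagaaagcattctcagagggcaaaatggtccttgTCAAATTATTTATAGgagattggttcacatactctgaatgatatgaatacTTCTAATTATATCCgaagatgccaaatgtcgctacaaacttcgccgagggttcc

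The first run, TTCTAATTATATCC, has 14 bases and starts 125 bases before the start of Myh2, 160 before Myh1, 158 before Myh4 and 54 before Myh8. Searched on both strands, it stood in 4 of the 32851 RefSeq promoter windows of mouse (250 bases before to 50 after a start), or 0.0122%, and those 4 were the windows of these genes. The second run, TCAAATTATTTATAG, has 15 bases and stood in 3 windows (0.00913%), those of Myh1, Myh4 and Myh8, upstream of the first run by 41, 14 and 35 bases. It contains a match to the binding consensus of the MEF2 muscle transcription factors, which 3.19% of all windows hold. TATAAA stood in the windows of all members but Myh7, and in 13.6% of all windows. These matches are letters in a window and say nothing of whether a factor was bound.

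The composition of the 7 genes turned over between E15.5 and E16.5. The embryonic gene Myh3 held most of their summed counts up to E15.5, and the perinatal gene Myh8 held most of them at E16.5 and P0. Shares were taken within each library, so the total amount of muscle RNA in a pool cancels. The share of Myh3 was 73.7% ± 2.25 (SD, n = 3) at E13.5 and 71.0% ± 1.84 a day later. It was 64.9% ± 4.55 at E15.5, then 32.1% ± 12.7 (E16.5) and 24.8% ± 5.11 (P0). Every library of the first 3 stages was at or above 60.04%, and every library of the last 2 stages was at or below 41.2%. The share of Myh8 was 16.4% ± 3.24 at E13.5, 17.9% ± 2.02 at E14.5 and 29.0% ± 4.29 at E15.5, followed by 60.7% ± 7.91 at E16.5 and 64.6% ± 5.30 at P0. Its highest share up to E15.5 was 33.7%, and its lowest share afterwards was 54.4%. At the smallest summed count of the 7 genes, 10152 in E14.5 replicate 1, the 95% Wilson interval of the Myh3 share was 68.3% to 70.1%, which covers counting error only.

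The slow gene Myh7 followed Myh3 and Myh8 in mean share at every stage. It held 8.48% ± 1.73 at E13.5, 9.66% ± 0.936 at E14.5 and 5.57% ± 0.699 at E15.5, followed by 3.08% ± 0.451 at E16.5 and 4.67% ± 2.83 at P0. At P0 this rank rested on replicate 3, where Myh7 held 7.91% and Myh1 1.56%. Myh1 was above Myh7 in P0 replicate 1 (5.87% against 3.35%) and replicate 2 (5.46% against 2.73%). The same held in E16.5 replicate 1 (5.14% against 2.57%). The 3 adult fast genes together held 1.07% ± 0.374 at E13.5, 1.09% ± 0.135 at E14.5 and 0.415% ± 0.0934 at E15.5, followed by 4.06% ± 5.36 at E16.5 and 5.96% ± 2.79 at P0. E16.5 replicate 1 alone carried the high value of its stage, 10.2%, against 0.968% and 0.961% in the other 2 libraries. At P0 the 3 libraries held 7.84%, 7.30% and 2.75%. Myh6 never reached 1%. Its share was 0.398% ± 0.0680 at E13.5 and 0.0464% ± 0.0167 at P0.

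**Figure D1:**
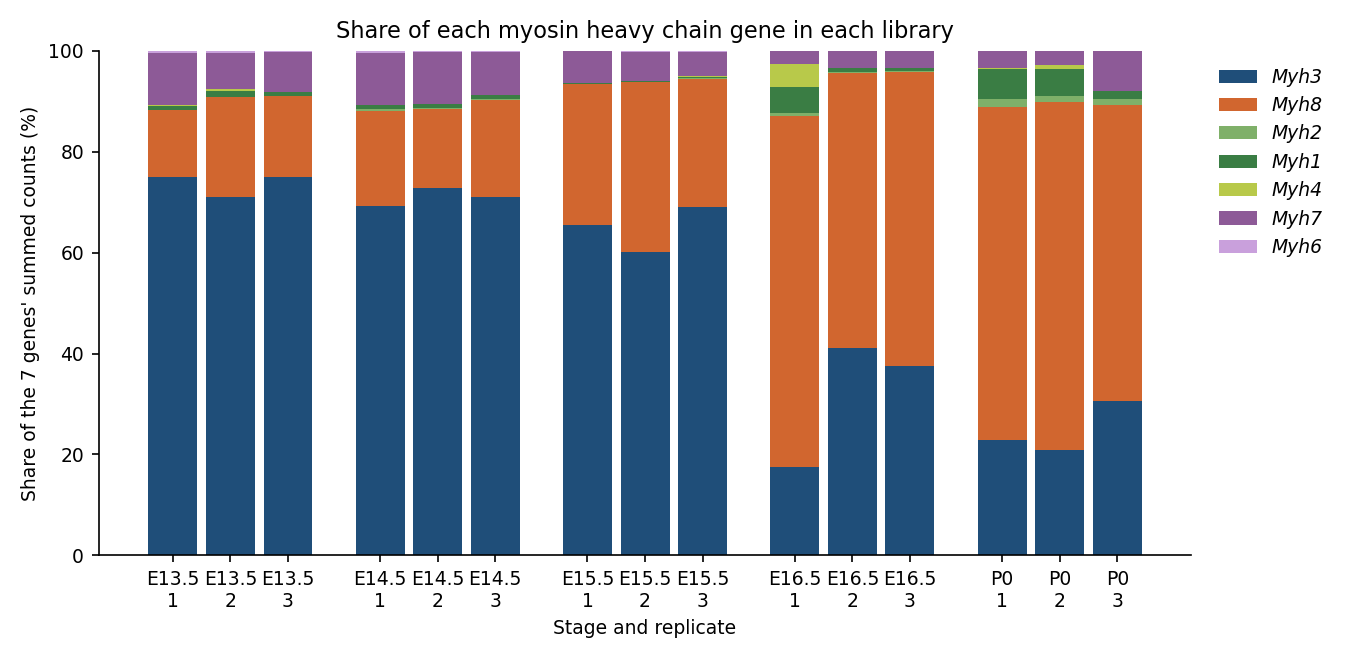
Share of each gene in the summed counts of the 7 genes (vertical axis, percent), 1 stacked bar per library, ordered by stage and replicate. Myh3 fills 60.04% or more of every bar up to E15.5, and Myh8 fills 54.4% or more of every bar from E16.5.

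A longer transcript gives more reads per molecule, so the shares were also taken per length. Divided by the longest protein-coding transcript, which ranges over these genes from 6016 to 6230 bases, the stage means of Myh3 and Myh8 moved by less than their SD (60.3% for Myh8 and 32.5% for Myh3 at E16.5). Divided by the exonic length in the count table, which for Myh8 is 11772 bases against 6149 for its coding transcript, the crossing was less clear: Myh3 and Myh8 then held 45.6% ± 16.3 and 45.3% ± 8.57 at E16.5, and 36.9% ± 6.55 and 49.8% ± 5.41 at P0. Per kilobase of coding transcript, the order of mean levels at E13.5 was Myh3 (24.1 ± 7.31 CPM per kb), Myh8 (5.26 ± 1.77), Myh7 (2.63 ± 0.630), Myh1 (0.268 ± 0.0690), Myh6 (0.125 ± 0.0236), Myh4 (0.0579 ± 0.0397) and Myh2 (0.0110 ± 0.00866). At P0 the order was Myh8 (1121 ± 808), Myh3 (383 ± 228), Myh1 (89.8 ± 73.6), Myh7 (56.0 ± 21.6), Myh2 (21.9 ± 15.3), Myh4 (9.26 ± 11.01) and Myh6 (0.653 ± 0.340). At E13.5 each neighbouring pair of means differed by more than either SD. At P0 this held only for Myh3 over Myh1 and for Myh7 over Myh2, and the other neighbours differed by less than the larger of their SDs. These SDs include the spread of the sum of the 7 genes over the P0 libraries (12210, 16188 and 2467 CPM). Within each P0 library Myh8 had more counts than Myh3, with log2 ratios of 1.52, 1.73 and 0.94.

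Myh3, the embryonic chain, was already expressed at E13.5. Its CPM in replicates 1, 2 and 3 was 116, 123 and 196 at E13.5, 109, 169 and 470 at E14.5 and 1949, 869 and 721 at E15.5, followed by 3022, 3771 and 2221 at E16.5 and 2797, 3372 and 753 at P0. Every library from E15.5 on lay above every earlier library, and P0 replicate 3 was within the range of E15.5. In edgeR, Myh3 rose by 2.24 ± 0.62 (log2, SE; adjusted p = 0.0209) from E14.5 to E15.5. Its difference from E15.5 to E16.5, 1.35 ± 0.60, did not pass (adjusted p = 0.217), and P0 against E16.5 gave -0.38 ± 0.60 (adjusted p = 0.837). Over the whole span it was 3.99 ± 0.67 higher at P0 than at E13.5 (adjusted p = 0.000340).

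Myh8, the perinatal chain, started lower and ended higher. Its CPM was 20.6, 34.3 and 42.1 at E13.5, 29.9, 36.1 and 127 at E14.5 and 830, 488 and 265 at E15.5, followed by 11989, 4983 and 3436 at E16.5 and 8042, 11187 and 1449 at P0. The libraries of E14.5, E15.5 and E16.5 did not overlap, while 2 libraries of P0 lay within the range of E16.5 and the other one below it. Myh8 rose by 3.03 ± 0.80 from E14.5 to E15.5 (adjusted p = 0.0167, edgeR) and by 3.69 ± 0.82 from E15.5 to E16.5 (adjusted p = 0.0492). The later of these steps lay at the threshold. It passed in 10 of 25 settings, with adjusted p up to 0.207, and without E16.5 replicate 1 it was 2.98 with adjusted p = 0.192. From E13.5 to P0 the rise was 7.74 ± 0.99 (adjusted p = 5.2e-05) and passed in all 25 settings.

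**Figure D2:**
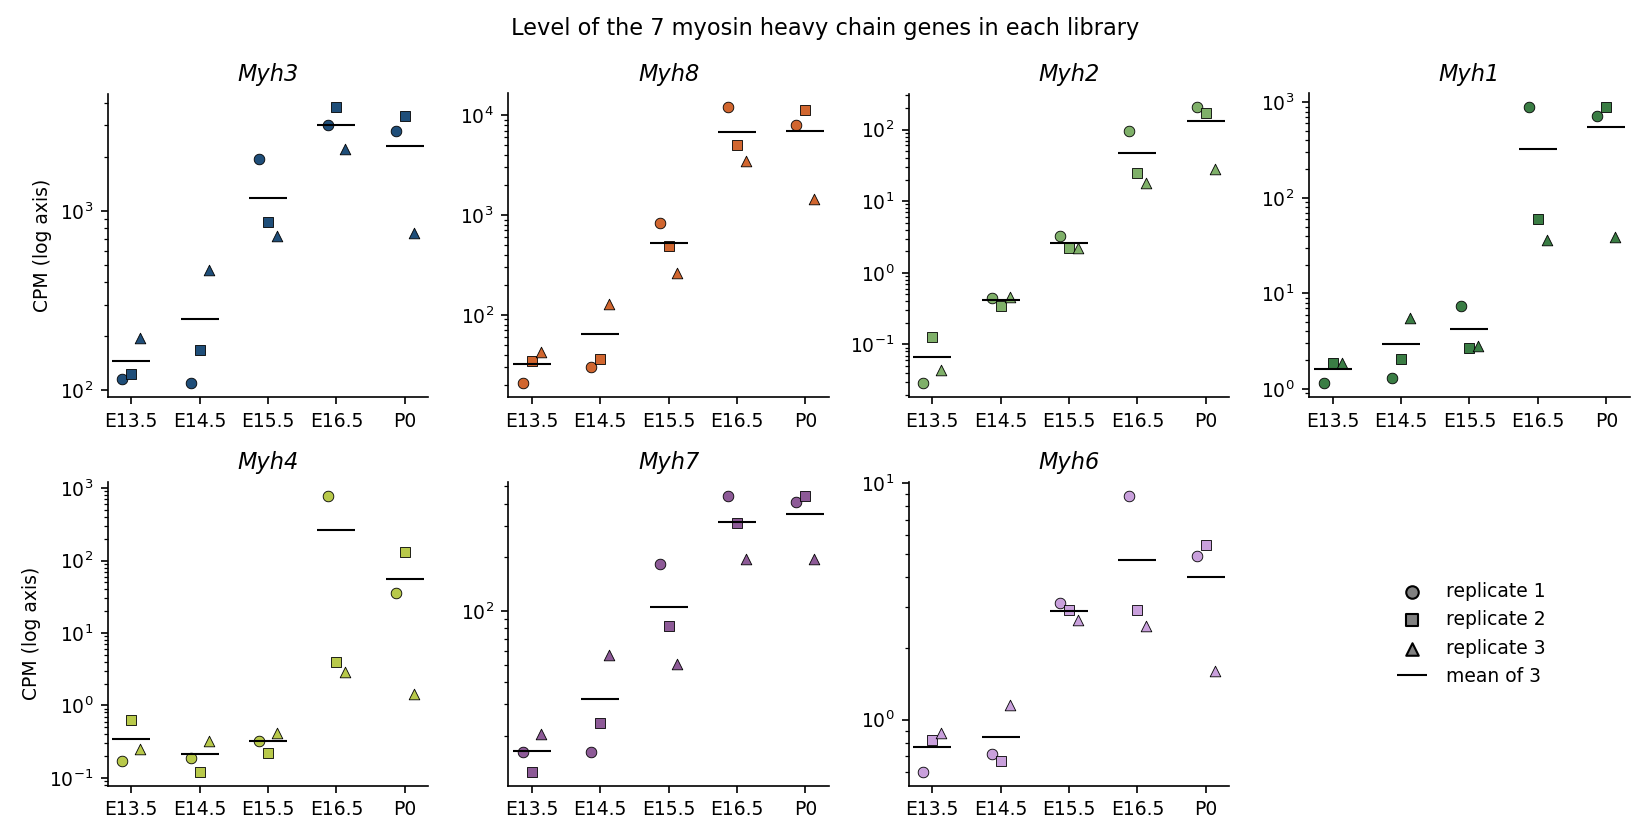
CPM of each gene (vertical log axis) in each library by stage (horizontal axis), with 1 symbol per replicate and a bar at the mean of 3. Myh4 is at or below 0.620 CPM in all 9 libraries up to E15.5 and reaches 782 CPM in E16.5 replicate 1.

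The change in the ratio of the 2 developmental genes was tested within libraries, where the total amount of muscle RNA cancels. The test compares mean ratios of counts between stages. It does not test which of the 2 genes was higher, which depended on the length used. The log2 ratio of Myh8 to Myh3 counts was -2.50, -1.85 and -2.22 at E13.5, -1.87, -2.22 and -1.88 at E14.5 and -1.23, -0.83 and -1.45 at E15.5, followed by 1.99, 0.40 and 0.63 at E16.5 and 1.52, 1.73 and 0.94 at P0. All 6 late libraries (E16.5 and P0) were above 0, and all 6 early libraries (E13.5 and E14.5) lay between -2.50 and -1.85. Late exceeded early by 3.29, a 9.80-fold change in the ratio (exact two-sided permutation test over 6 against 6 libraries, p = 0.00216, the smallest this design can give; 0.00325 after Benjamini-Hochberg adjustment over 3 ratios). With E16.5 replicate 1 and P0 replicate 3 left out, the difference was 3.16 (adjusted p = 0.00714 in the same exact test). The exact test of P0 against E13.5 alone, 3 against 3 libraries, cannot go below p = 0.10.

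**Figure D3:**
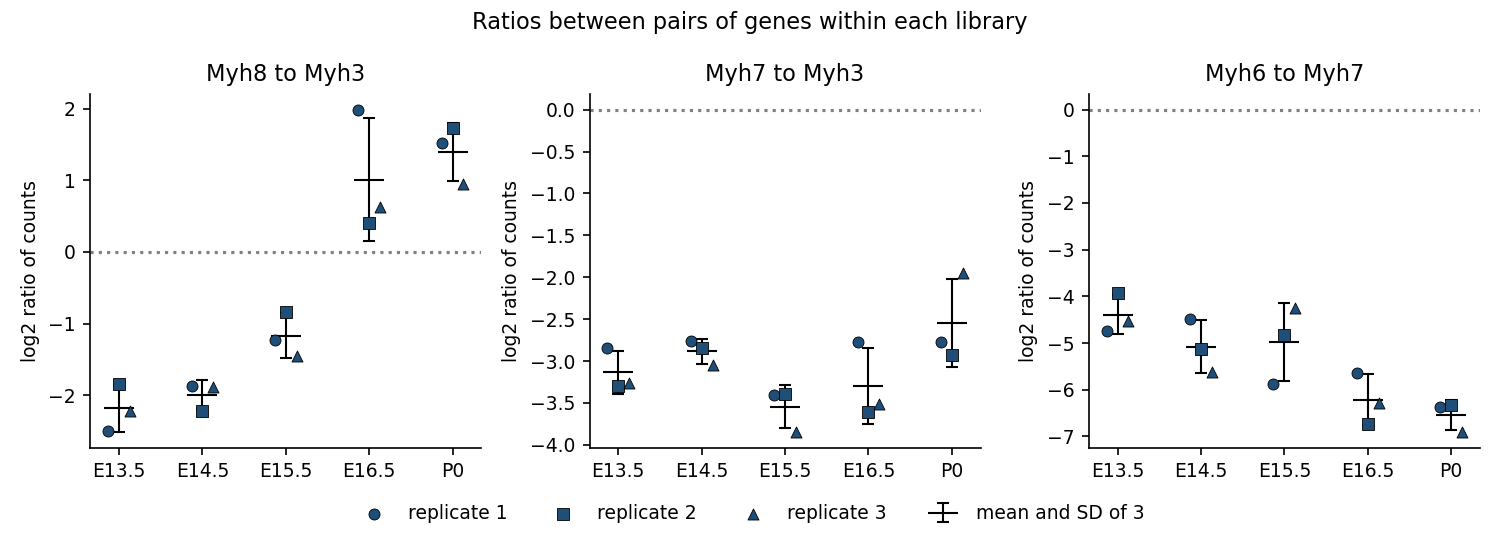
Log2 ratio of counts of Myh8 to Myh3, Myh7 to Myh3 and Myh6 to Myh7 (vertical axes) in each library by stage, with the mean and SD of 3. The Myh8 to Myh3 ratio is below 0 in all 9 libraries up to E15.5 and above 0 in all 6 later ones, and the Myh7 to Myh3 ratio lies between -3.84 and -1.95 throughout.

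The rise of Myh3 in CPM and its fall in share can be set against other muscle genes of the same library. As a measure added after the data were seen, each gene was divided by the summed CPM of 10 thick filament and M-band genes (among them Ttn, Myom1 and Mybpc1). On this scale Myh3 was 1.03 ± 0.0290 (SD, n = 3) at E13.5, 1.22 ± 0.117 at E14.5 and 1.41 ± 0.138 at E15.5, followed by 0.739 ± 0.179 at E16.5 and 0.652 ± 0.106 at P0. The 6 late libraries, 0.535 to 0.904, all lay below the 9 libraries up to E15.5, the lowest of which was 1.005. This fall depends on the genes summed, which rose unequally. From E13.5 to P0, mean CPM went from 15.9 to 1644 for Mybpc1, 9.25 to 76.8 for Unc45b and 13.2 to 95.4 for Smyd1. Myh3 went from 145 to 2307, so it rose less than Mybpc1 and more than Unc45b and Smyd1. Other sums were not tested. Myh8 went from 0.230 ± 0.0586 at E13.5 to 0.628 ± 0.0988 at E15.5, and read 1.52 ± 0.573 (E16.5) and 1.72 ± 0.267 (P0) afterwards. The sum of the 7 genes rose less on this scale, from 1.40 ± 0.0830 to 2.66 ± 0.278. In CPM that sum was 197 ± 56.8 at E13.5 and 10288 ± 7060 at P0, or 0.0207% and 0.919% of all counts. In bulk tissue, more muscle fibres and more myosin RNA per fibre cannot be told apart, which holds for every level in CPM here.

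Myh7, the slow chain, rose from E14.5 to E15.5. Its CPM was 16.2, 12.5 and 20.4 at E13.5, 16.2, 23.6 and 56.8 at E14.5 and 184, 82.6 and 50.2 at E15.5, followed by 442, 310 and 195 at E16.5 and 409, 443 and 195 at P0. The last 2 stages overlapped almost fully, and E15.5 replicate 3 lay below E14.5 replicate 3. It rose by 1.72 ± 0.55 from E14.5 to E15.5 (adjusted p = 0.0366, edgeR) and by 4.42 ± 0.61 from E13.5 to P0 (adjusted p = 8.91e-05). The first of these passed in 18 of 25 settings and was 1.04 with adjusted p = 0.160 without E15.5 replicate 1. The log2 ratio of Myh7 to Myh3 was -3.01 ± 0.23 (SD) in the 6 early and -2.92 ± 0.60 in the 6 late libraries. The difference of 0.09 was within the spread (exact permutation p = 0.777), and over leaving out each library in turn it ran from -0.11 to 0.22, so a change of the Myh7 to Myh3 ratio was not detected.

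Myh6, the alpha chain of the heart, stayed near the bottom of the range. Its CPM was 0.602, 0.817 and 0.876 at E13.5, 0.717, 0.666 and 1.15 at E14.5 and 3.12, 2.91 and 2.65 at E15.5, followed by 8.83, 2.90 and 2.50 at E16.5 and 4.91, 5.46 and 1.61 at P0. The step to E15.5 was clear of overlap, and the later stages overlapped with E15.5. It rose by 1.77 ± 0.51 from E14.5 to E15.5 (adjusted p = 0.0247, edgeR). Relative to Myh7 it fell. The log2 ratio of Myh6 to Myh7 was -4.74 ± 0.58 in the early and -6.38 ± 0.44 in the late libraries, a difference of -1.64 (exact permutation p = 0.00216, adjusted 0.00325), and -1.70 without E16.5 replicate 1 and P0 replicate 3 (adjusted 0.00714). The late libraries all lay below the early ones, at -5.64 or less against -5.61 or more, a gap far smaller than the spread within either group.

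The list of heart genes was read for RNA of the heart beside Myh6 and Myh7. Of its 10 genes, the highest CPM over the 15 libraries was 352 for Sln, 29.4 for the calcium release channel gene Ryr2, 13.3 for Tbx20 and 6.40 for cardiac troponin Tnni3. Tbx5 and Nkx2-5 reached at most 1.31 and 1.29 CPM, and Nppb 0.499. The atrial light chain gene Myl7 reached at most 1.62 CPM, the natriuretic peptide gene Nppa at most 0.166 CPM with 3 libraries at 0, and cardiac Mybpc3 at most 0.884 CPM. Without the 2 highest, Sln and Ryr2, the other 8 genes summed to 3.50 to 17.5 CPM over the 15 libraries. Sln, which encodes the calcium pump regulator sarcolipin and is also made by skeletal muscle, held most of the list's rise, from 2.41 to 4.89 CPM at E13.5 to 196 to 352 at E16.5. Of the 9 heart genes tested, 4 were higher at P0 than at E13.5, where 29.8% of all genes were. The source of the heart list's RNA was not tested.

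Of the adult fast genes, Myh2 passed in edgeR at the same first step as Myh3 and Myh8. Myh1 and Myh4 passed at no single step in edgeR with all libraries and the filter used here. In DESeq2 both passed from E15.5 to E16.5 (adjusted p = 7.0e-07 for Myh1 and 2.9e-07 for Myh4). With no filter, or a mean of at least 1 CPM, Myh1 also passed that step in edgeR (adjusted p = 0.0459 and 0.0476). Myh2, the IIA chain, had a higher mean at each stage than at the one before. Its CPM was 0.0287, 0.127 and 0.0446 at E13.5 (2, 9 and 3 counts), 0.452, 0.348 and 0.463 at E14.5 and 3.25, 2.22 and 2.24 at E15.5, followed by 96.5, 24.9 and 18.03 at E16.5 and 205, 168 and 27.95 at P0. Neighbouring stages did not overlap up to E16.5, and only P0 replicate 3 fell inside the range of E16.5. Myh2 rose by 2.60 ± 0.76 from E14.5 to E15.5 (adjusted p = 0.0263, edgeR) and by 4.18 ± 0.75 from E15.5 to E16.5 (adjusted p = 0.0284). The later step passed in 18 of 25 settings. Without E16.5 replicate 1 it was 3.04 with adjusted p = 0.0956, and without that library and P0 replicate 3 it was 3.04 with adjusted p = 0.00326. The whole span was 10.91 ± 1.07 (adjusted p = 1.01e-05), the largest log2 difference of the 7 genes, against a starting level of a few counts.

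Myh1, the IIX chain, was at 1.15 to 7.37 CPM in all 9 libraries up to E15.5. It then read 886, 59.8 and 35.8 CPM at E16.5, and 716, 884 and 38.5 at P0. The 3 high libraries read 716 to 886 CPM and the other 3 late libraries 35.8 to 59.8, and all 6 late libraries were above all earlier ones. E16.5 against E15.5 gave 6.26 ± 1.42 and just missed the threshold (adjusted p = 0.0503, edgeR). Without E16.5 replicate 1 that difference was 3.47 (adjusted p = 0.203), and without both that library and P0 replicate 3 it was 3.47 with adjusted p = 0.0297. P0 was 8.39 ± 1.56 above E13.5 (adjusted p = 0.000681).

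Myh4, the IIB chain, was high in 3 libraries. Up to E15.5 its 9 libraries held 0.121 to 0.620 CPM. At E16.5 it read 782, 3.93 and 2.94 CPM, and at P0 36.1, 130 and 1.44 CPM. E16.5 replicate 1 was 228 times the mean of the other 2 libraries of its stage, where Myh3 differed by 1.009 times, Myh8 by 2.85 and Myh1 by 18.5. E16.5 against E15.5 gave 9.67 ± 2.32 (adjusted p = 0.0597, edgeR) and 3.39 without that library (adjusted p = 0.289). P0 was 7.31 ± 2.13 above E13.5 (adjusted p = 0.0109), and 5.76 without P0 replicate 2 (adjusted p = 0.0338).

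E16.5 replicate 1 also read 86.2 CPM of Myh13, the next gene of the cluster, against 1.52 and 0.612 in the other 2 libraries. Mybpc2, the fast isoform of myosin-binding protein C, read 144, 7.25 and 3.597 CPM at E16.5. In P0 replicate 3 the 7 genes stood 2.18 to 57.6 times below the mean of the other 2 libraries of P0, with Myh7 least and Myh4 most. The 5 palate mesenchyme genes summed to 73.9 CPM in E16.5 replicate 1 against 113 and 130 in the other 2 libraries, and to 155 in P0 replicate 3 against 66.8 and 100. The single genes were mixed. In E16.5 replicate 1, Pax9, Msx1, Shox2 and Tbx22 were the lowest of their stage, but Osr2 was the highest (30.4 CPM against 20.4 and 22.04). In P0 replicate 3 most of the higher sum was Msx1 (63.4 CPM against 4.13 and 9.76), and Pax9 (40.97) lay between the other 2 libraries (28.96 and 55.9). The part of tissue composition in these differences was not tested.

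Step by step, the calls fell on E15.5 first. All 7 genes differed between stages in edgeR's test over the 5 stages, where 59.1% of all genes did (64.7% before adjustment). Between E13.5 and E14.5 none passed in edgeR, against 0.00903% of all genes. Myh2 was the 1 gene with an unadjusted p under 0.05 in edgeR (2.61 ± 1.02), where 16% of all genes had one. It was also the 1 gene of the 7 that passed in DESeq2, where 1000 of 22151 genes passed. The stages of Myh2 did not overlap, as for 15.5% of all genes in this direction. From E14.5 to E15.5, 5 of 7 passed and were higher (Myh2, Myh3, Myh6, Myh7 and Myh8), where 26.1% of all genes passed and 12.7% were higher. Before adjustment these were also the 5 below 0.05, against 39.7% of all genes. The stages did not overlap for 4 of them, Myh7 being the exception, against 24% of all genes in this direction. The median log2 difference of the 7 genes was 1.77, against 0.03 over all genes. This count rested on single libraries: it was 0 without either replicate 1 or replicate 2 of E14.5, 2 when replicate 1 or 2 of E15.5 was left out, and 3 when replicate 3 of E15.5 was. Over all genes, 5773 of 22151 passed with all libraries. Without E14.5 replicate 1 or 2 this was 2320 of 22824 and 3259 of 22854. Without replicate 1, 2 or 3 of E15.5 it was 5353 of 23063, 2975 of 22732 and 3010 of 22707.

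From E15.5 to E16.5, 2 of 7 passed (Myh2 and Myh8, both higher), where 1.41% of all genes passed and 1.03% were higher. Before adjustment 6 were below 0.05, against 21.8% of all genes. The stages did not overlap for 6 of 7 genes, which held for 15.7% of all genes in this direction, and the median difference of the 7 was 3.69 against -0.000783 over all genes. DESeq2 called 5 (Myh1, Myh2, Myh4, Myh7 and Myh8), where it called 2094 of 22151 genes. In edgeR the count was 0 without E13.5 replicate 1, E14.5 replicate 2, E16.5 replicate 1 or any 1 library of E15.5, and 4 without E16.5 replicate 3 or P0 replicate 3. It was 1 (Myh2) without E13.5 replicate 2 or 3, E14.5 replicate 1, E16.5 replicate 2, or P0 replicate 1 or 2. Calls over all genes also moved, from 312 of 22151 with all libraries to 1 of 23000 without E16.5 replicate 1. Without replicate 1, 2 or 3 of E15.5 they were 78 of 23063, 0 of 22732 and 2 of 22707. Without E13.5 replicate 1 or E14.5 replicate 2 they were 65 of 22840 and 81 of 22854. Without E16.5 replicate 3 or P0 replicate 3 they were 504 of 23047 and 969 of 22814.

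From E16.5 to P0 none of the 7 passed in edgeR or in DESeq2. Over all genes 0.352% passed in edgeR, with 0.19% higher, and 663 of 22151 passed in DESeq2. With each tool 1 of the 7 had an unadjusted p under 0.05 (in edgeR Myh2, 1.52 ± 0.67), against 11.7% of all genes in edgeR. For none of the 7 was every library of P0 above every library of E16.5, against 6.23% of all genes. With E16.5 replicate 1 and P0 replicate 3 left out, 1626 of 22767 genes passed, against 78 of 22151 with all libraries. The 3 adult fast genes then passed and were higher at P0. Their differences were then 4.07 for Myh1 (adjusted p = 0.0111), 3.12 for Myh2 (0.00340) and 4.61 for Myh4 (0.00790, all edgeR), where Myh4 gave -2.24 ± 1.62 with all libraries. Leaving out these libraries was chosen after the data were seen. Across the whole span all 7 passed and were higher at P0 than at E13.5, where 56.6% of all genes passed, 29.8% higher and 26.8% lower (61.7% in all before adjustment). For all 7, every library of P0 lay above every library of E13.5, against 30.2% of all genes in this direction. Their differences ran from 2.39 (Myh6) to 10.91 (Myh2), with a median of 7.31 against 0.03 over all genes, and all 7 passed in every setting tried.

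**Figure D4:**
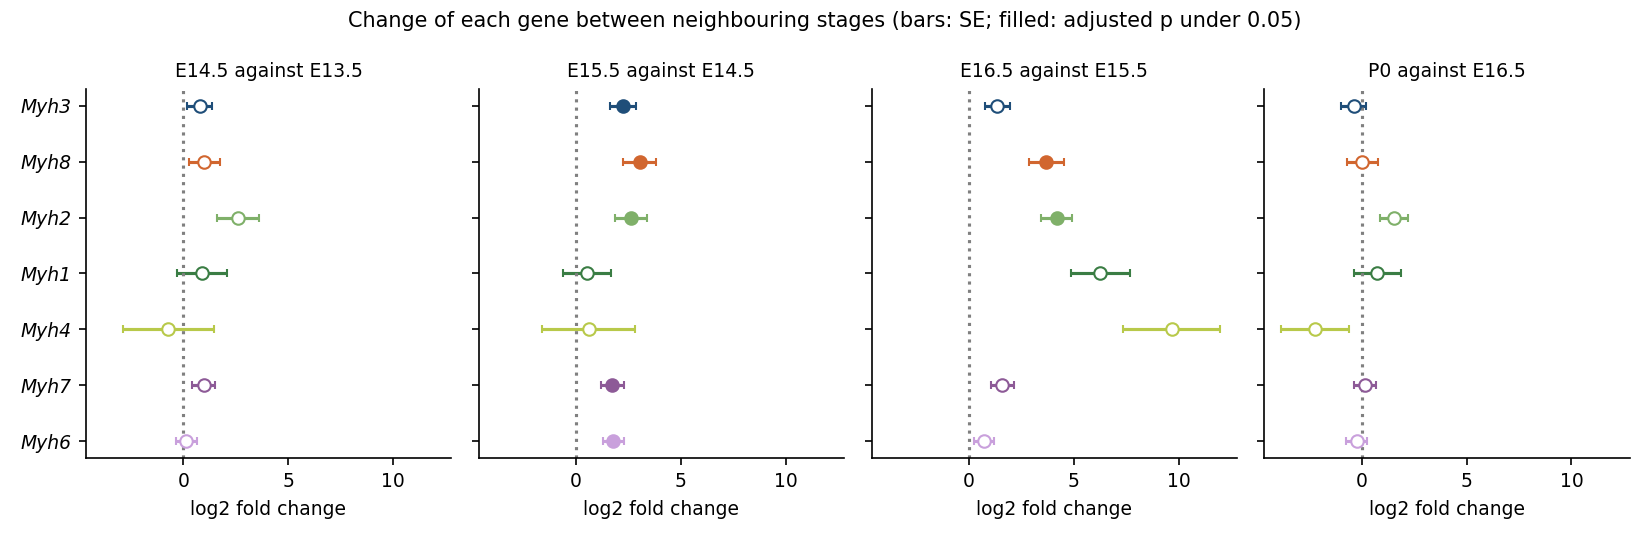
Log2 fold change of each gene (horizontal axis, later over earlier stage) with its SE, for the 4 steps between neighbouring stages. Filled circles passed an adjusted p of 0.05 in edgeR: 5 genes from E14.5 to E15.5 and 2 from E15.5 to E16.5.

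The contractile partners of these chains moved in the same window. Of 10 fast-fibre genes (troponins, light chains, calcium handling and Z-disc proteins), 8 rose from E14.5 to E15.5, with a median difference of 2.41. The 4 largest were Myoz1, a Z-disc protein (3.76 ± 0.83), and the fast troponin genes Tnnt3 (3.08 ± 0.82), Tnni2 (3.03 ± 0.82) and Tnnc2 (2.78 ± 0.81). From E15.5 to E16.5, 3 of 10 passed in edgeR and 10 in DESeq2, which called 2094 of 22151 genes at this step. The 3 were Myoz1 (4.25 ± 0.83), the calcium store protein gene Casq1 (3.82 ± 0.76) and Tnnt3 (3.73 ± 0.84). All 10 were higher at P0 than at E13.5, with a median of 6.82. Over all genes, 12.7% passed and were higher from E14.5 to E15.5, 1.03% from E15.5 to E16.5 and 29.8% from E13.5 to P0. The same shares, and the number for DESeq2, stand beside the counts of the slow-fibre, developmental, mature and thick filament lists below. The count of 8 became 1 without replicate 1 or 2 of E14.5, 3 without replicate 1 or 2 of E15.5 and 5 without replicate 3 of E15.5. The count of 3 became 0 without E14.5 replicate 2, E16.5 replicate 1 or 2 or any library of E15.5, and 7, 5 or 9 without E14.5 replicate 3, E16.5 replicate 3 or P0 replicate 3. It was 2 with both E16.5 replicate 1 and P0 replicate 3 left out, where 182 of 22767 genes passed. Over all genes, the settings that changed the count of 8 gave 2320 to 5353 calls, against 5773 with all libraries. Those that gave 0 at the later step had 0 to 81 calls over all genes, against 312.

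Of 8 slow-fibre genes, 4 rose from E14.5 to E15.5, namely the slow light chain genes Myl3 (3.13 ± 0.78) and Myl2 (2.95 ± 0.69), the Z-disc gene Myoz2 (2.202 ± 0.67) and Casq2 (2.16 ± 0.65). From E15.5 to E16.5 none of the 8 passed in edgeR (6 at an unadjusted p under 0.05) and 4 passed in DESeq2. All 8 were higher at P0 than at E13.5, with a median of 5.65. The count of 4 became 1 when E14.5 replicate 2 was left out, 2 when E14.5 replicate 1 or replicate 1 or 2 of E15.5 was, and 7 when E14.5 replicate 3 was. The count of 0 from E15.5 to E16.5 became 3 with E14.5 replicate 3 left out and 2 with P0 replicate 3 left out. Whether fast and slow genes differed from each other was not tested.

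Muscle genes with a developmental or a mature form were read beside the myosin genes. The 5 developmental isoforms (Actc1, Myl4, Myl6b, Tnnt2 and the fetal acetylcholine receptor subunit Chrng) were all higher at P0 than at E13.5, with a median of 3.08. The 3 mature isoforms, skeletal actin Acta1 (7.70 ± 1.02), muscle creatine kinase Ckm (10.70 ± 1.39) and the adult receptor subunit Chrne (4.90 ± 0.90), had a median of 7.70. Chrne lay near the floor of detection at E13.5 (2, 0 and 4 counts) and read 0.943, 1.46 and 0.348 CPM at P0. All 3 mature isoforms rose from E14.5 to E15.5, where 2 of the 5 developmental isoforms did (Myl4, 1.75 ± 0.60, and Chrng, 1.87 ± 0.64). Of the 10 thick filament and M-band genes, 7 rose at that step, led by Mybpc1 (2.65 ± 0.72), Myom2 (2.49 ± 0.70), Ttn (2.47 ± 0.67) and Myom3 (2.38 ± 0.66). Over the whole span 9 of the 10 were higher, with a median of 4.57 and Mybpc2 largest (10.07 ± 1.78). Mybpc2 started from 2, 10 and 3 counts at E13.5 and read 85.6, 144 and 8.80 CPM at P0. The count of 7 became 0 without E15.5 replicate 1 or without replicate 1 or 2 of E14.5. The 2 developmental calls were lost without replicate 1 or 2 of E14.5 or any 1 library of E15.5 or E16.5, and became 4 without E14.5 replicate 3 or P0 replicate 3. The 3 mature calls became 1 when E14.5 replicate 1 was left out, and 2 when it was E14.5 replicate 2 or replicate 1 or 2 of E15.5. The counts over the whole span for these muscle lists changed by at most 1 gene in the same alternatives.

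**Figure D5:**
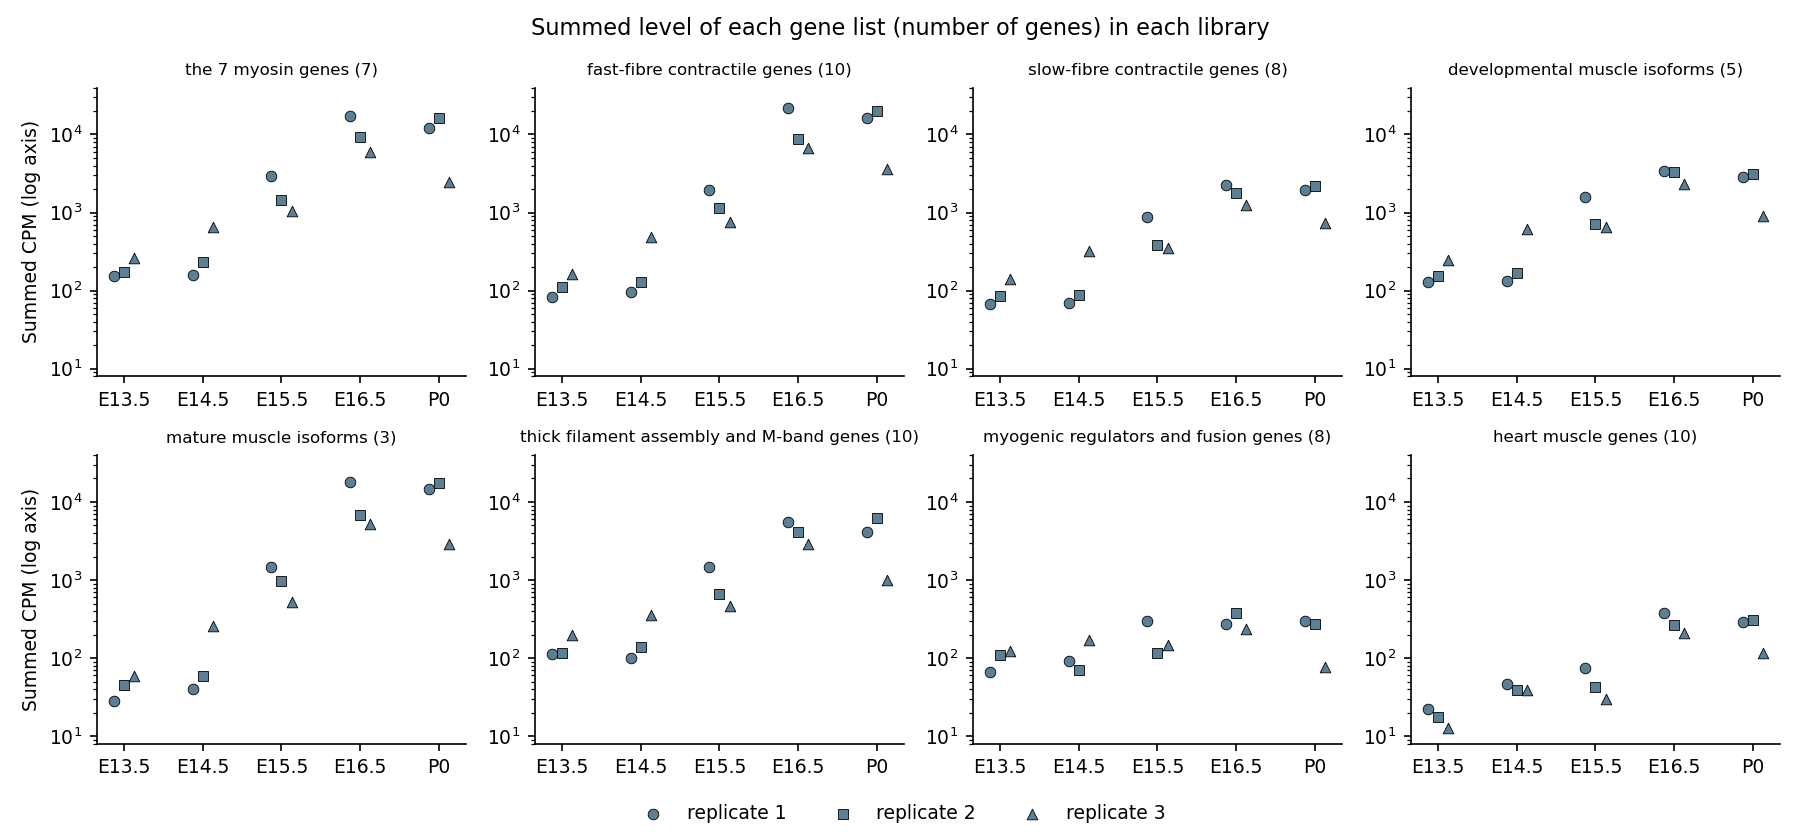
Summed CPM (vertical log axis) of the 7 myosin genes and of 7 lists of muscle genes in each library by stage, with the number of genes in brackets. The myosin genes and the fast-fibre, slow-fibre, developmental, mature and thick filament lists rise without overlap from E14.5 to E15.5 and to E16.5. The heart list overlaps between E14.5 (39.4 to 46.8 CPM) and E15.5 (29.5 to 75.2 CPM). The myogenic regulators overlap there too and stay within 67.0 to 381 CPM.

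Of 13 genes known to act upstream of fibre type, 6 were higher and 3 lower at P0 than at E13.5, with a median of 0.52. Over all genes 29.8% were higher and 26.8% lower, so these counts lie near the background. The largest were Ppargc1a, a regulator of mitochondrial genes and slow fibres (3.13 ± 0.80), the co-factor Vgll2 (2.86 ± 0.70), Mef2c (1.32 ± 0.33) and Eya4 (-1.21 ± 0.32). Ppargc1a read 21.5, 173 and 10.3 CPM at P0, so 1 library held most of its mean. Mef2c was the 1 regulator to pass from E14.5 to E15.5 (1.11 ± 0.33), and no regulator passed there when replicate 1 or 2 of E14.5 or replicate 1 or 3 of E15.5 was left out. Of 8 myogenic regulators and fusion genes, 4 were higher and 1 lower over the span, with Myf6, the late myogenic factor, highest (6.96 ± 1.05) and Pax3, a progenitor factor, lowest (-4.31 ± 0.93). Mymk and Myf5 changed by 3.29 ± 0.65 and 1.79 ± 0.65.

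Among the other 7 myosin heavy chain genes, 6 were higher and 1 lower at P0 than at E13.5, with a median of 1.62. The largest were Myh13 (4.17 ± 1.47), the smooth muscle gene Myh11 (3.35 ± 0.57), Myh14 (2.09 ± 0.38) and Myh7b (1.62 ± 0.59), and the non-muscle gene Myh10 fell (-1.36 ± 0.16). Myh9 was the 1 gene of these to pass from E14.5 to E15.5 (0.71 ± 0.16). Smooth muscle genes were higher at P0 in 5 of 5 cases (Myh11, Cnn1, Tagln and Acta2 by 3.35, 2.69, 2.59 and 2.10). Of 3 tendon genes 1 was higher (Tnmd, 2.73 ± 0.88), and 3 of 5 palate mesenchyme genes were lower (Tbx22, Shox2 and Osr2 by -4.78, -2.68 and -1.12). Over all genes 29.8% were higher and 26.8% lower at P0 than at E13.5, so the tendon count lies near the background. From E16.5 to P0 no gene of these 12 lists passed in edgeR or in DESeq2, and 0 to 2 genes of each list had an unadjusted p under 0.05 with either tool.

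Antisense transcripts are annotated within both loci. Myhas, on the opposite strand from within Myh1 to just before Myh4, had 0 to 1 counts in each library up to E15.5, 65, 4 and 2 counts at E16.5 and 14, 18 and 0 at P0. Counting used the strand, and Myh1 in E16.5 replicate 1 had 41052 counts. The long non-coding RNA gene 2310065F04Rik, between Myh3 and Myh2, read 0.0289 to 0.236 CPM up to E15.5 and 4.71, 0.775 and 0.612 CPM at E16.5. Both were higher at P0 than at E13.5 (Myhas 5.53 ± 1.76, adjusted p = 0.0201; 2310065F04Rik 4.79 ± 1.02, adjusted p = 0.00163, edgeR). With 1 count of Myhas in all of E13.5, the size of its fitted change depends on the prior count. Whether any of these counts came from reads of the sense genes was not tested.

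Across the 15 libraries, the genes with the most similar log2 CPM were found for each of the 7. Myh8 was closest to Pygm, muscle glycogen phosphorylase (Pearson r = 0.999), Tnnc2 (0.998) and Trdn, a protein of the calcium release site (0.998). Myh3 was closest to Tigd4 (0.996), the muscle kinase gene Srpk3 (0.995) and the M-band gene Myom3 (0.994). Myh7 was closest to Adprhl1 (0.991), Myoz2 (0.991) and Csrp3 (0.990), and Myh2 to Creb3 (0.990), Myadml2 (0.988) and Phkg1 (0.985). The genes closest to Myh1 were Ptpmt1, Uqcr10 and Ndufa13 (0.987 each), and those closest to Myh4 were Mrpl42 (0.988), Mrpl51 (0.985) and Ndufb5 (0.984). Myh6 was closest to Tmigd3 (0.965), Bcap31 (0.964) and Cisd3 (0.961). Among the members themselves the correlation ran from 0.724 (Myh3 with Myh4) to 0.984 (Myh7 with Myh8). All points share the 5 stages, so these values describe likeness over stages and pools and have no p-value.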

How the data were processed

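The 7 genes and the gene lists were chosen with earlier results of these data known. Gene counts were deposited by the authors as raw fragments per gene. Per the file header they came from featureCounts 2.0.1 with GENCODE M18, counted on the reverse strand. The submitters' processing notes name HISAT2 2.2.1, Bowtie2, cutadapt 3.4, SAMtools 1.12, FastQC 0.11.9 and the build mm10. Symbols came from GENCODE M21 by identifier.

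Counts were tested with edgeR 4.0.16 (R 4.3.3): TMM scaling, filterByExpr with a minimum count of 10, 1 coefficient per stage over all 15 libraries, quasi-likelihood F tests and Benjamini-Hochberg adjustment over 22151 genes at 0.05. CPM used TMM-adjusted totals. Ratios within libraries had 0.5 counts added and an exact permutation over 924 assignments. Lists were described by counts and medians, naming up to 4 genes with the largest change among those that passed, and for each myosin gene the 3 genes most alike. Scripts were tested on simulated counts. Alternatives were DESeq2 1.42.0, other scalings and filters, a replicate block, only the 6 libraries compared, single libraries left out, shares per length and, added after the data were seen, E16.5 replicate 1 and P0 replicate 3 left out together, lists with libraries left out and shares by coding transcript.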

Additional observations from a re-analysis of the deposited data

How the results depend on the processing

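All 7 genes differed over the stages and between P0 and E13.5 under every alternative. The number past the threshold for E14.5 against E13.5 was 1 with DESeq2 and 1 without E16.5 replicate 1 and P0 replicate 3, and for P0 against E16.5 it was 3 without those libraries. For E16.5 against E15.5 it was 5 with DESeq2 and 0 with only the 6 libraries compared. Leaving out single libraries gave 0 to 5 genes for E15.5 against E14.5 and 0 to 4 for E16.5 against E15.5. Over all genes, single libraries left out gave 2320 to 6035 and 0 to 969 calls for these 2 steps. For E14.5 against E13.5 the settings named gave 1000 of 22151 and 125 of 22767 genes. For P0 against E16.5 the setting named gave 1626 of 22767. For E16.5 against E15.5 it was 2094 of 22151 with DESeq2 and 0 of 20218 with only the 6 libraries compared. The cause of these shifts was not tested.

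Replicate numbers showed no clear pairing of the libraries. Over 30 same-number pairs the correlation of deviations from the stage mean ran from -0.303 to 0.548 (median -0.00166), and 9 were over 0.1. Over 60 different-number pairs it ran from -0.498 to 0.426 (median -0.0223), and 19 were over 0.1. Of the 15 libraries, 7 were closest to their own number. With the replicate number as a block, 1 gene (Myh2) passed for E16.5 against E15.5, and for E15.5 against E14.5 Myh7 no longer did (1.57, adjusted p = 0.0745 in edgeR).

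With P0 against E13.5 only, the log2 ratio of Myh8 to Myh3 differed by 3.59 and that of Myh6 to Myh7 by -2.14 (exact permutation, adjusted p = 0.15 each), where 3 against 3 libraries cannot pass. The ratio of Myh7 to Myh3 differed by -0.19 without E16.5 replicate 1 and P0 replicate 3, and by -0.11 to 0.22 without single libraries. Per exonic length in the table, the shares from E13.5 to P0 were 82.4%, 80.4%, 76.9%, 45.6% and 36.9% for Myh3 and 9.44%, 10.4%, 17.7%, 45.3% and 49.8% for Myh8.

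Changes of sign were limited to differences that had not passed. Myh8 for P0 against E16.5 was -0.026 with no filter. Without E16.5 replicate 1 and P0 replicate 3, Myh6 was -0.11 for E16.5 against E15.5, and Myh3, Myh4 and Myh6 were 0.052, 4.61 and 0.94 for P0 against E16.5. Leaving out single libraries gave -0.059 to 1.14 for Myh3, -1.17 to 0.0051 for Myh4 and -0.14 to 0.29 for Myh6 (E14.5 against E13.5), -0.14 to 1.33 for Myh1 (E15.5 against E14.5) and -0.11 to 1.02 for Myh6 (E16.5 against E15.5). For P0 against E16.5 it gave -0.78 to 0.038 for Myh3, -3.83 to 4.03 for Myh4, -0.56 to 0.57 for Myh6, -0.11 to 0.47 for Myh7 and -0.55 to 0.72 for Myh8.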
